A study of Mus musculus with 6 samples.

Results

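The Cfap genes are the genes named for cilia and flagella associated proteins, and all rows of the count table whose symbol is Cfap followed by digits alone were taken. The rule found 31 genes among 22851 gene symbols. All 31 had a mean of 10 or more counts over the 6 libraries, with a lowest mean of 119 counts, and all 31 passed the filter on low counts. The 3 other symbols that begin with Cfap (Cfap20dc, Cfap97d1 and Cfap97d2) carry extra letters and are not members.

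The libraries came from radial glial cells of the brains of newborn C57BL/6J mice, aged postnatal day 0 to 3, which were grown in 10% serum and then kept without serum for 6 days so that they could differentiate into multiciliated ependymal cells. The question of the study was which genes depend on Edf1 during this differentiation. WT cells gave 3 libraries and cells of Edf1 knockout mice, made with CRISPR/Cas9, gave 3, described by the submitters as biological replicates. Both genotypes had the same background and the same serum-free medium. The labels name no tissue-specific driver, and they give neither the edit nor the number of mice or founder lines behind a library.

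A motile cilium is built on an axoneme, a ring of doublet microtubules around a central pair. Dynein arms on the doublets slide them against each other, and radial spokes and the central apparatus regulate the arms. Proteins inside the doublets stiffen the microtubule wall, and assembly factors build the dynein arms in the cytoplasm. Products of Cfap genes are found in each of these places, and ependymal cells use many such cilia to move cerebrospinal fluid. The genes were grouped by the place of the protein, as known mostly from algae, sperm and airway cilia: 7 encode microtubule inner proteins, 9 central apparatus proteins, 7 regulators of dynein arms and spokes, 2 arm assembly factors, and 6 proteins with another or a less settled role.

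Rfx factors and Foxj1 switch on many motile cilia genes, and Rfx proteins bind a palindromic X-box. The RefSeq promoter windows (GRCm38.p6, from 250 bases before to 50 after a start site) held 27 windows for 24 of the 31 genes. The palindrome, searched on both strands as GTNNCC, any 3 bases and then GNAAC (N is any base), was found in 5 of these 27 windows (18.5%), against 2.17% of all 32851 windows and 15% of 60 windows of other axoneme genes. The windows with a match belong to Cfap44, Cfap45, Cfap61, Cfap206 and Cfap298. The 4 matches that lie wholly before the start site of their window are shown with their flanks, on the strand of the gene, with the match in capitals. As printed, those of Cfap44, Cfap45 and Cfap206 are the reverse complement of the searched motif, which they fit on the other strand only. Letters that the 4 matches share follow in part from the search rule, and letters that the rule leaves free differ between the genes.
Cfap44, chr16:44394764-44394793, plus strand: ggagggacGTTGCTATGGCAACcgcagtaa
Cfap45, chr1:172521103-172521129, plus strand: gttcttggGTTGCTATGGTAACgcgtc
Cfap206, chr4:34730208-34730237, minus strand: cgcgttccGTTTCCACGGTTACgcgactgc
Cfap298, chr16:90935016-90935045, minus strand: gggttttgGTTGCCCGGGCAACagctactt

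The matches of Cfap44, Cfap45 and Cfap206 end 13, 5 and 9 bases before the start site of their window, and that of Cfap298 ends 174 bases before it. The RefSeq genes Cfap44 and Cfap206 begin further upstream, at chr16:44394742 and chr4:34730263. Their matches therefore lie inside the gene span. The log2 fold changes of these 4 genes ran from -0.20 in Cfap44 and -0.41 in Cfap298 to -0.64 in Cfap45 and -0.99 in Cfap206. The median log2 fold change was -0.64 for the 5 genes with the palindrome and -0.60 for the 19 genes with a window and no match. The shorter Rfx motif GTTGCC was in 37% of the Cfap windows, 46.7% of the other axoneme windows and 12.5% of all windows. It lies within the palindromes of Cfap44 and Cfap298 and was absent from the windows of Cfap45, Cfap61 and Cfap206. The 9 Cfap genes with it had a median of -0.41, and the 15 without it had -0.75. The forkhead motif TGTTTAC was in 2 Cfap windows (7.41%), those of Cfap20 and Cfap43, against 3.65% of all windows. A match is a description of letters in these windows and was not tested as a binding site.

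Total counts were 13071766 to 28087006 per library, and WT replicate 2 had the lowest. Edf1 itself fell from 82.9 ± 2.85 to 11.3 ± 1.72 CPM (counts scaled to the TMM-adjusted size of a library; mean ± SD, n = 3 each), in the direction of the labels in all 6 libraries. WT replicate 2 also stood apart from WT replicates 1 and 3 on the second principal component (16.1% of the variance). Its difference from the other WT libraries was lower in longer genes. Spearman's rho with exon length was -0.53 across the 31 Cfap genes, -0.75 across 67 other axoneme genes and -0.48 across 13911 tested genes with a length. This is a description across genes of the same libraries. Results that change without this library are given with and without it. Of 10 ependymal marker genes, 9 were lower in the knockout, their summed level fell outside the WT range (945 to 982 against 1504 to 1754 CPM), and none was at 0. In bulk RNA, fewer ciliated cells and less RNA per ciliated cell cannot be told apart.

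Cfap genes were lower in the knockout as a body, but by very different amounts. The CPM summed over the 31 genes was 3202, 3327 and 3194 in WT replicates 1, 2 and 3, against 2269, 2120 and 2332 in the knockout. Every knockout library lay below every WT library, and the knockout mean was 69.1% of the WT mean. An exact two-sided permutation test over the 6 libraries gave p = 0.1, the smallest value this design allows. Within the knockout, replicate 2 was the lowest library for 23 of the 31 genes. Within WT, replicate 2 was the highest for 18.

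Of the 31 genes, 25 fell and 0 rose by the quasi-likelihood test of edgeR (adjusted p below 0.05), where 14.2% of the 14243 tested genes were called lower and 12.7% higher. At an unadjusted p under 0.05 by edgeR, 0 of the 31 were higher, against 18.7% of all tested genes. DESeq2 and limma voom also called 0 higher. The median log2 fold change was -0.65, against 0.0029 over all tested genes, and 30 of 31 had a value below 0. The knockout libraries lay wholly below the WT libraries for 27 of 31, against 22.1% of tested genes, and wholly above for 0 of 31, against 21.3%. A fall of at least 2-fold was called for 4 genes (Cfap73, Cfap161, Cfap221 and Cfap299), against 1.69% of tested genes. The remaining 6 genes, Cfap20, Cfap44, Cfap77, Cfap97, Cfap100 and Cfap410, did not pass. Levels in every library are plotted by role group.

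**Figure D1:**
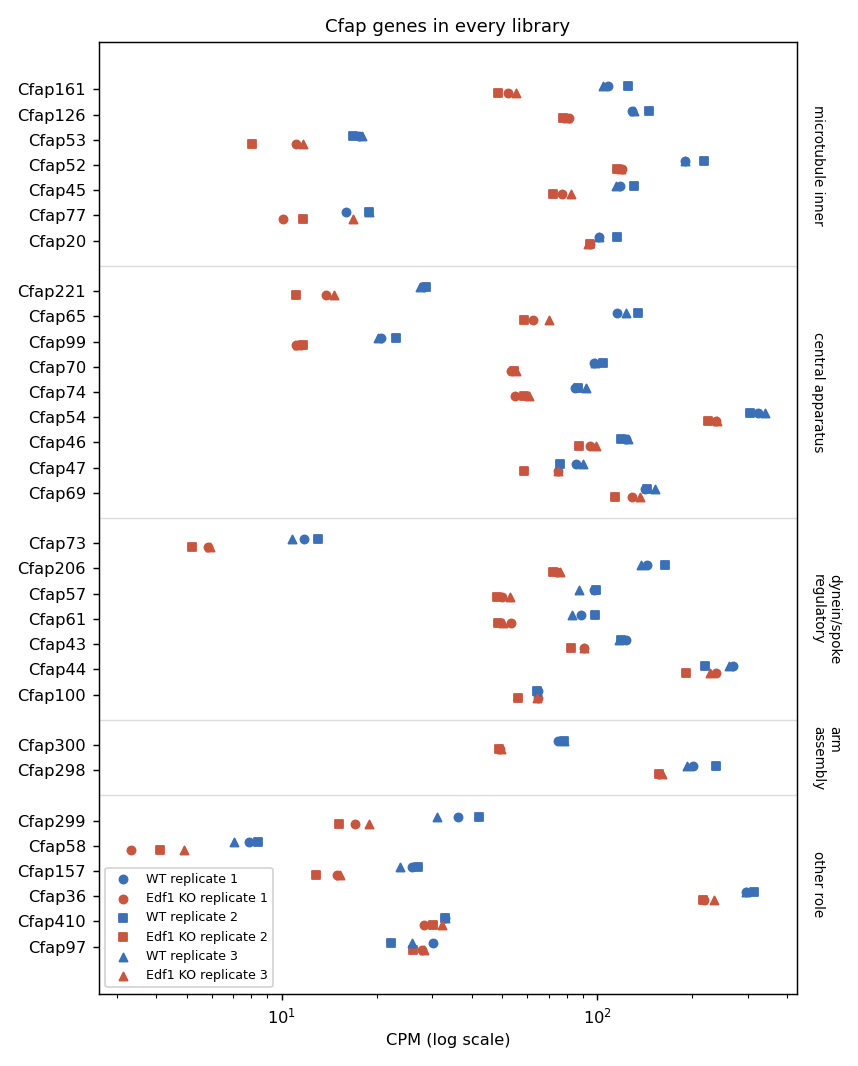
CPM of each Cfap gene on a log axis in each of the 3 WT (blue) and 3 Edf1 knockout (red) libraries, with marker shape giving the replicate number and genes grouped by role. For 27 of the 31 genes all red points lie left of all blue points, and Cfap44, Cfap77, Cfap97 and Cfap100 overlap.

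Levels of different genes were compared only per length, as CPM per kilobase of merged exons. In WT the highest was Cfap36 at 181, followed by Cfap298 at 147, Cfap126 at 111 and Cfap52 at 90.4 CPM per kilobase. The lowest was Cfap58 at 2.22, below Cfap97 at 5.51. High and low genes both occur among those that fell most: on this scale Cfap206 was at 64.1 and Cfap221 at 9.79 in WT. Across the 31 genes Spearman's rho of the log2 fold change with mean log2 CPM was 0.33, and with exon length 0.25 (0.23 across all tested genes). These are descriptions across genes that share the 6 libraries. The exons of 10 of the 31 genes overlap a gene on the opposite strand, and in 8 more than 5% of 31-mers also occur in another gene. Their counts may therefore hold reads of a neighbour. The 31-mers were searched on both strands, so opposite-strand overlaps are counted among them and the 2 measures are not independent.

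Microtubule inner proteins line the lumen of the doublets. Of the 7 genes, 5 fell and 2 did not pass, with a median log2 fold change of -0.75. Cfap161 (chr7:83775612-83798025, minus strand, RefSeq GRCm38.p6 as for all gene positions here) showed the lowest value of all 31 Cfap genes. It had 108, 125 and 104 CPM in WT replicates 1, 2 and 3 and 52.2, 48.3 and 55.3 CPM in the knockout. Its highest knockout library was well below its lowest WT library, and its log2 fold change was -1.11 (SE 0.077, adjusted p = 1.00e-06 by edgeR). Cfap126, also called Flattop, Cfap53, a gene linked to left-right asymmetry, and Cfap52 fell by almost the same amount, with log2 fold changes of -0.76 (SE 0.060), -0.76 (SE 0.12) and -0.75 (SE 0.061). Cfap45 fell by 0.64 on the log2 scale (SE 0.068).

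Cfap20, whose product sits at the inner junction where the partial tubule of a doublet closes on the complete one, was at the other end of this group. Its values were 101, 115 and 101 CPM in WT and 95.0, 94.5 and 93.1 CPM in the knockout. All knockout libraries lay below all WT libraries, but by little, and the log2 difference of -0.16 (SE 0.062) missed the threshold (adjusted p = 0.0708 by edgeR). Without WT replicate 2, its highest library, it was -0.10 (adjusted p = 0.107 by edgeR). Cfap77, a protein of the partial tubule, overlapped between the genotypes because knockout replicate 3 (16.9 CPM) lay above WT replicate 1 (15.9 CPM). Its log2 fold change was -0.43 (SE 0.16, adjusted p = 0.0588 by edgeR), and without knockout replicate 3 it was -0.70 (adjusted p = 0.00270). DESeq2 called it lower with all libraries (-0.45, adjusted p = 0.0225).

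The central apparatus is the structure around the central pair of microtubules. All 9 genes of this group fell, with no overlap between the genotypes in any of them and a median log2 fold change of -0.60. The lowest was Cfap221, also called Pcdp1 (chr1:119923340-120006958, minus strand), at 28.1, 28.7 and 27.5 CPM in WT and 13.8, 11.1 and 14.7 CPM in the knockout. WT replicates were nearly equal, and the log2 fold change was -1.08 (SE 0.099, adjusted p = 7.06e-06 by edgeR). Cfap65, Cfap99 and Cfap70 followed with -0.95 (SE 0.077), -0.90 (SE 0.089) and -0.88 (SE 0.056). Cfap74 fell by 0.60 on the log2 scale (SE 0.061).

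Smaller falls were measured in the other central apparatus genes. Cfap54 had 323, 304 and 340.1 CPM in WT and 238, 224 and 240.0 CPM in the knockout, with no overlap. Its log2 fold change was -0.46 (SE 0.053, adjusted p = 4.32e-05 by edgeR). Cfap46 fell by 0.38 on the log2 scale (SE 0.059). Cfap69 had 141, 143 and 152 CPM in WT and 128, 114 and 136 CPM in the knockout, a narrow gap between genotypes. Its log2 fold change was -0.21 (SE 0.067, adjusted p = 0.0384 by edgeR). The call of Cfap69 was lost in 4 of the 6 fits that each left out a library (WT replicate 1 or 3, knockout replicate 1 or 2; -0.14 to -0.22). Cfap47, on the X chromosome, had -0.27 (SE 0.093, adjusted p = 0.0456 by edgeR) and lost its call without any of the other libraries than WT replicate 2 (-0.16 without knockout replicate 2, the value closest to 0, to -0.33). All 9 falls of this group were also called without WT replicate 2.

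Regulators of dynein arms and radial spokes ranged from -1.06 for Cfap73 to -0.058 for Cfap100 in log2 fold change. Of the 7 genes, 5 fell and 2 did not pass, with a median log2 fold change of -0.83. Cfap73 (chr5:120628335-120634235, minus strand) had 11.8, 13.1 and 10.8 CPM in WT and 5.84, 5.18 and 5.91 CPM in the knockout. The genotypes were well separated, and the log2 fold change was -1.06 (SE 0.12, adjusted p = 4.39e-05 by edgeR). Cfap206, which helps to dock a radial spoke, Cfap57, which binds inner dynein arms, and Cfap61, of the complex at the spoke base, had -0.99 (SE 0.068), -0.91 (SE 0.066) and -0.83 (SE 0.069). Cfap43 fell by 0.44 on the log2 scale (SE 0.057).

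Cfap100 (chr6:90403731-90429768, minus strand) was hardly different between the genotypes. It had 64.8, 64.2 and 64.3 CPM in WT and 65.0, 56.1 and 64.4 CPM in the knockout. Knockout replicates 1 and 3 lay within the WT range or above it, and only knockout replicate 2 was lower. The log2 fold change was -0.058 (SE 0.065, adjusted p = 0.555 by edgeR), and it was 0.0061 without knockout replicate 2, -0.094 without knockout replicate 1 and -0.088 without knockout replicate 3. Cfap44 had 269.5, 219 and 261 CPM in WT and 237, 191 and 228 CPM in the knockout, so that replicate 2 was the lowest library in both genotypes. The log2 difference of -0.20 (SE 0.086) missed the threshold (adjusted p = 0.115 by edgeR). It passed without WT replicate 2 (-0.28, adjusted p = 0.00138) and after the trend of each library with exon length was removed (-0.27, adjusted p = 0.00329), whereas without knockout replicate 2 it was -0.11 (adjusted p = 0.407 by edgeR).

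**Figure D2:**
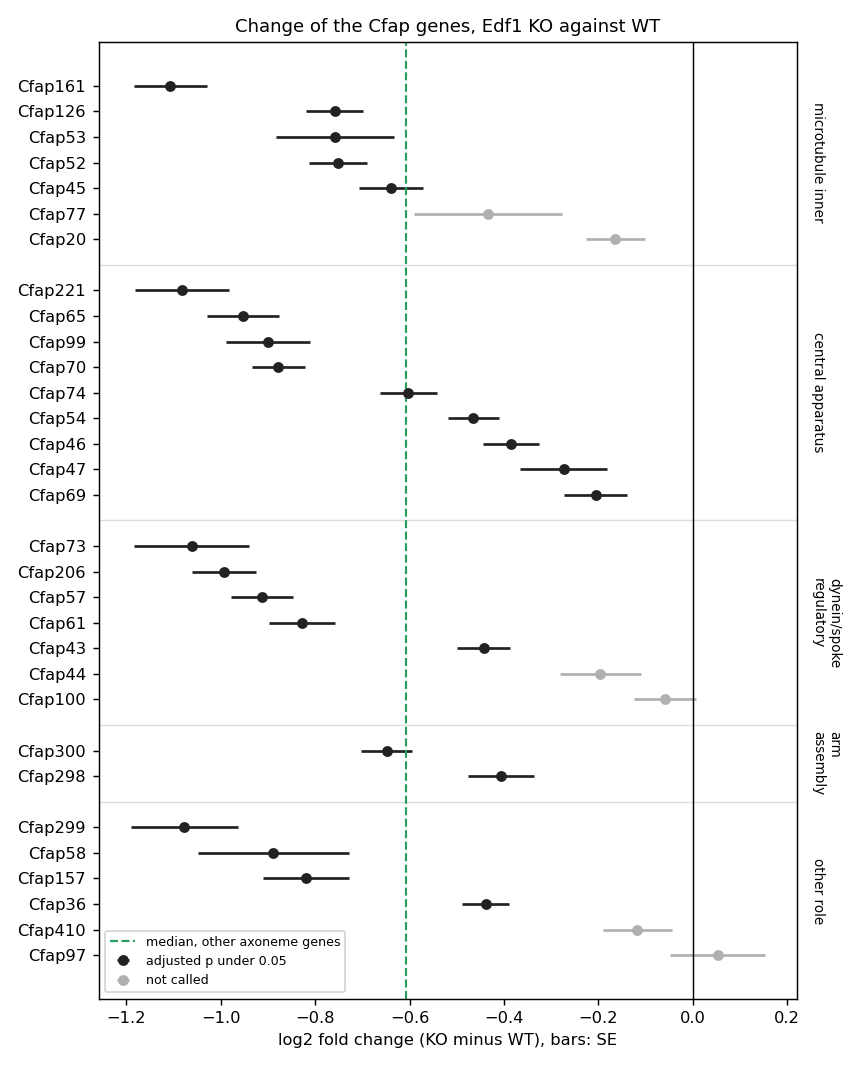
Log2 fold change (knockout minus WT) of each Cfap gene with its standard error, grouped by role; black points passed the edgeR test at an adjusted p below 0.05, grey points did not, and the dashed line is the median of the other axoneme genes (-0.61). Values run from -1.11 in Cfap161 to 0.053 in Cfap97, and each large role group spans most of that range.

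Both arm assembly genes fell. Mutations of either human counterpart cause primary ciliary dyskinesia. Cfap300 had 74.9, 78.3 and 78.4 CPM in WT and 49.2, 48.9 and 49.5 CPM in the knockout, with very little spread within a genotype. Its log2 fold change was -0.65 (SE 0.054, adjusted p = 3.47e-06 by edgeR). Cfap298 had 200.3, 237 and 192 CPM in WT and 157, 157 and 159.7 CPM in the knockout, which is -0.41 on the log2 scale (SE 0.070, adjusted p = 0.000957 by edgeR). The level of Cfap298 is uncertain, because its exons overlap 4930534H18Rik and Gm49727 on the opposite strand. With both strands searched, and thus with this overlap included, 42.9% of its 31-mers also occur in another gene. Whether the counting used strand is not given in the sources used here.

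The last group joins genes with other roles, and it held both large falls and the single value above 0. Of the 6 genes, 4 fell. Cfap299 (chr5:98329138-98802053, plus strand) had 36.1, 42.2 and 31.1 CPM in WT and 17.1, 15.2 and 18.9 CPM in the knockout. The genotypes were far apart, at -1.08 on the log2 scale (SE 0.11, adjusted p = 2.34e-05 by edgeR), although 16.8% of its 31-mers also occur in another gene. Cfap58, a gene of sperm flagella, and Cfap157, a basal body gene, fell by 0.89 (SE 0.16) and 0.82 (SE 0.092) on the log2 scale. Cfap58 had the fewest reads of all Cfap genes, down to 54 in a library. Cfap36, whose product binds small GTPases of the Arl family, had 296, 312 and 297 CPM in WT and 218, 216 and 234 CPM in the knockout. It fell by 0.44 on the log2 scale (SE 0.050, adjusted p = 4.19e-05 by edgeR).

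Cfap410 and Cfap97 did not pass. Cfap410, which encodes a protein of the ciliary base, had a value of -0.12 on the log2 scale (SE 0.073, adjusted p = 0.262 by edgeR), although its knockout libraries (28.2, 30.1 and 32.3 CPM) lay below its WT libraries (32.8, 32.8 and 32.9 CPM). It was -0.074 without knockout replicate 1 and -0.062 after removal of the exon length trend, and it did not pass in either. Cfap97 (chr8:46162095-46195590, plus strand) had 30.1, 22.2 and 25.9 CPM in WT and 27.9, 26.0 and 28.1 CPM in the knockout. The 3 knockout values lay inside the WT range. Its log2 fold change was 0.053 (SE 0.10, adjusted p = 0.737 by edgeR) and turned to -0.041 without WT replicate 2. It was 0.18 without WT replicate 1, 0.089 without knockout replicate 2, 0.034 without knockout replicate 3 and 0.014 after removal of the exon length trend, and it passed in none of these. Its exons overlap Snx25 on the opposite strand by 132 bases.

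Other genes of motile cilia were compared from lists, to place the Cfap values. Of 67 other axoneme genes tested (dynein arm, docking, nexin, spoke, central pair and inner protein genes), 59 fell and 0 rose, with a median log2 fold change of -0.61. At an adjusted p under 0.05, DESeq2 and limma voom also called 59 of them lower. Their values ran from -1.88 for Tekt3 to 0.046 for Tekt2, a wider range than that of the Cfap genes. Tekt3 rests on 8 to 44 reads per library. Of 15 other dynein arm assembly genes, 15 fell, with a median of -0.68. Of 14 multiciliation regulators, 10 fell, with a median of -0.83, and Foxj1 fell by 0.59 on the log2 scale (SE 0.049), from 788 ± 43.4 to 523 ± 10.3 CPM (SD, n = 3 each).

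Markers of other cell types also moved with the genotype. Of 14 microglial genes tested, 12 were called lower, with a median log2 fold change of -0.62, close to that of the Cfap genes (-0.65). Their summed level was 2397 to 2555 CPM in WT and 1562 to 1631 CPM in the knockout. All 8 fibroblast, mural and endothelial genes tested were called higher (summed level 604 to 640 CPM in WT and 851 to 941 CPM in the knockout). Rgs5 and the endothelial Pecam1, Cdh5 and Cldn5 had too few reads to be tested. Of 13 radial glia and astrocyte genes, 3 were called higher and 2 lower, with summed levels of 10960 to 11498 CPM in WT and 11740 to 12202 CPM in the knockout. Summed neuronal genes were at 44.8 to 47.7 CPM in WT and 40.3 to 43.7 CPM in the knockout. Of 8 neuronal genes tested, 2 were called lower and 0 higher, and Snap25, Gad2, Slc17a6 and Slc17a7 were too low to be tested. Oligodendrocyte genes were at 453 to 492 CPM in WT and 423 to 441 CPM in the knockout, with Mobp at 0. Choroid plexus genes were at 146 to 180 CPM and 153 to 174 CPM, with Kl, Aqp1 and Prlr too low to be tested. The part of these shifts in the Cfap values was not tested.

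**Figure D3:**
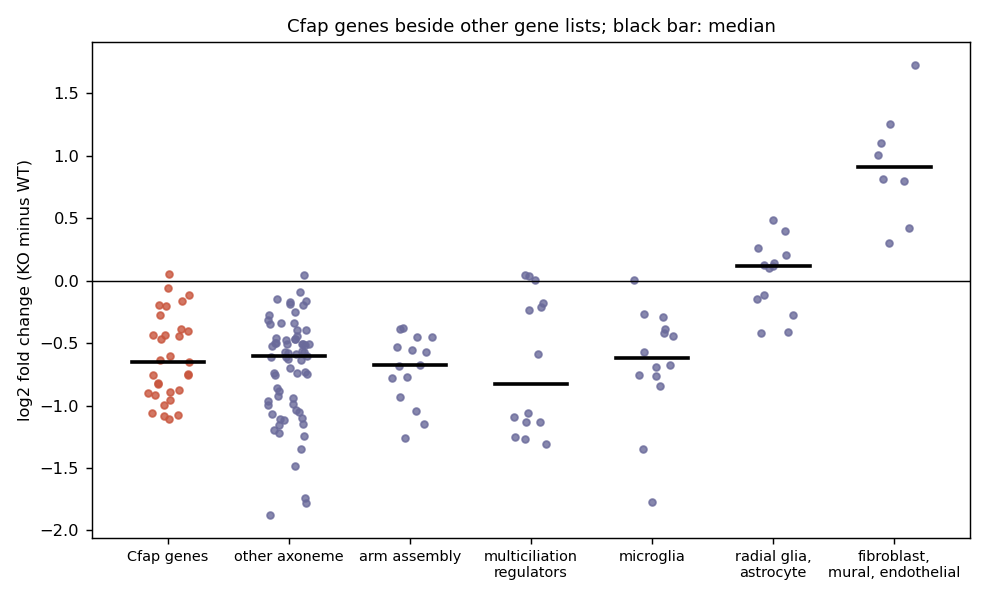
Log2 fold change (knockout minus WT) of every tested gene in 7 lists, each point a gene and each black bar a median. The medians of the Cfap genes (red, -0.65), other axoneme genes (-0.61), arm assembly genes (-0.68) and microglial genes (-0.62) lie close together. That of the multiciliation regulators is -0.83. No arm assembly gene lies above -0.38, whereas the Cfap genes reach 0.053. Radial glia genes lie around 0 and fibroblast, mural and endothelial genes above it.

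To ask which Cfap genes changed differently from the axoneme programme, each gene was tested again in edgeR with the libraries scaled to the summed counts of the other axoneme genes. On this scale a gene that fell as much as that sum has a value of 0. The sum itself was 63.1% of WT in the knockout, a log2 difference of -0.66. Of the 31 Cfap genes, 10 were lower than the axoneme sum and 12 were higher, with 9 not called. The 67 other axoneme genes, which make up the sum, also lay on both sides of it, with 22 lower and 20 higher. A split around the sum is therefore not particular to the Cfap genes. Over all tested genes, 1.61% were lower and 88.1% were higher on this scale, since most genes of the table did not fall. The test treats the sum as a fixed reference. Because most genes were called on this scale, adjustment over the whole table changed the p-values little. For Cfap61, for example, p was 0.0447 before and 0.0498 after adjustment by edgeR, so calls near the threshold are weak.

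The genes that fell further than the axoneme sum were Cfap161 (-0.44, SE 0.078), Cfap221 (-0.43, SE 0.10), Cfap299 (-0.42), Cfap73 (-0.40), Cfap206 (-0.33), Cfap65 (-0.29), Cfap57 (-0.25), Cfap99 (-0.24), Cfap70 (-0.21) and Cfap61 (-0.16). Those higher than the sum were led by Cfap97 (0.71, SE 0.10), Cfap100 (0.60, SE 0.076), Cfap410 (0.54), Cfap20 (0.50), Cfap44 (0.46) and Cfap69 (0.45). Cfap47, Cfap46, Cfap298, Cfap36, Cfap43 and Cfap54 were higher by 0.38 to 0.20. The inner protein genes Cfap126, Cfap52 and Cfap45 and the assembly gene Cfap300 kept close to the sum, at -0.094, -0.086, 0.023 and 0.014. Of the 10 genes below the sum, 7 were called in every alternative, and the exceptions were Cfap61, Cfap70 and Cfap99. Of the 12 above it, 11 were called in every alternative, and the exception was Cfap54. The summed Cfap level was 43.4%, 43.7% and 43.8% of the axoneme sum in WT, against 47.9%, 47.6% and 47.8% in the knockout. The genotypes did not overlap (exact two-sided permutation p = 0.1, the smallest possible). A summed level gives most weight to genes with high CPM. The median of the 31 genes relative to the axoneme sum was 0.014.

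**Figure D4:**
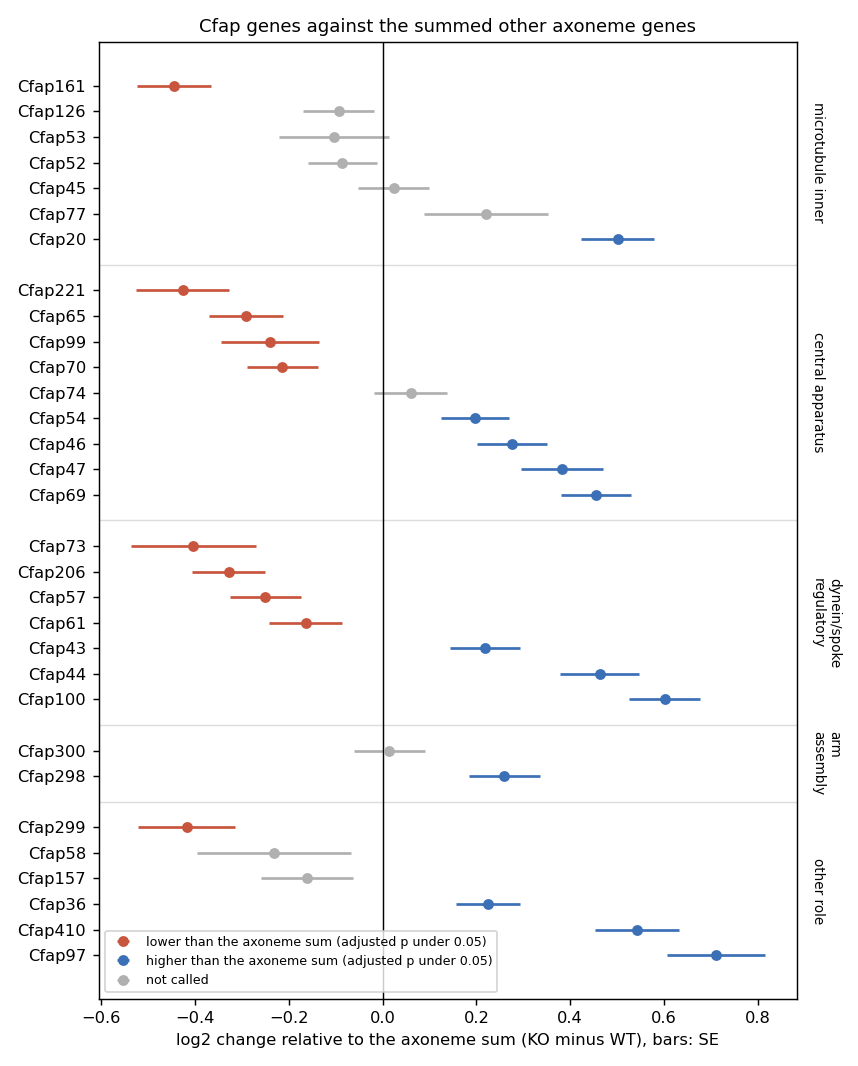
Log2 change of each Cfap gene relative to the summed counts of the other axoneme genes (knockout minus WT) with its standard error; red points were lower and blue points higher than that sum at an adjusted p-value under 0.05 by edgeR, and grey points were not called. Central apparatus and dynein and spoke regulatory genes lie on both sides of 0, from Cfap221 (-0.43) to Cfap100 (0.60).

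Genes whose products share a complex were set side by side within each library, a choice made after their values were seen. Cfap73 and Cfap100 encode partner coiled-coil proteins of the modifier of inner arms complex. The log2 ratio of Cfap73 to Cfap100 CPM was -2.46, -2.30 and -2.57 in WT, against -3.48, -3.44 and -3.45 in the knockout. The ratio was lower in every knockout library, by 1.01 on the log2 scale, and almost equal among them (SD 0.14 in WT and 0.021 in the knockout). Cfap43 and Cfap44 encode partners in the tether that links an inner dynein arm to the doublet. Their log2 ratio was -1.13, -0.88 and -1.15 in WT, against -1.38, -1.21 and -1.33 in the knockout, a mean difference of -0.25 with a narrow gap between WT replicate 3 and knockout replicate 2.

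**Figure D5:**
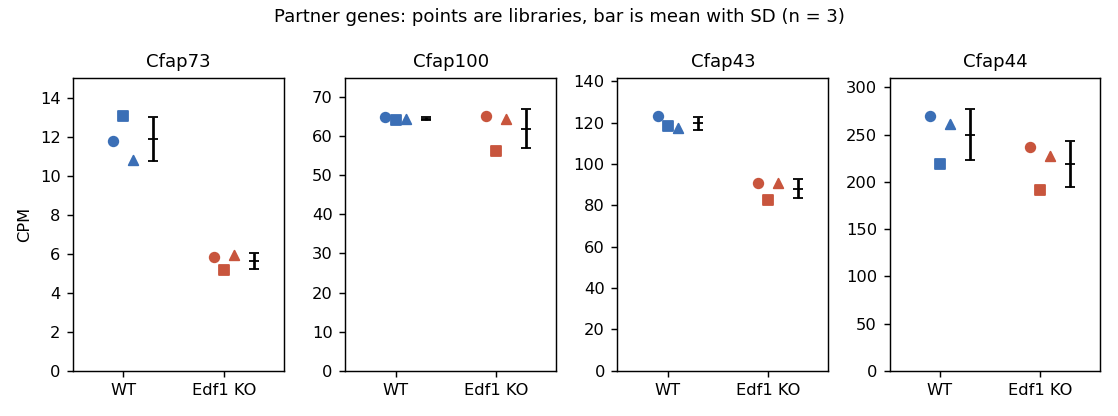
CPM of 2 pairs of partner genes in each library (marker shape gives the replicate), with the mean and SD of the 3 libraries of a genotype beside the points; each vertical axis starts at 0 and has its own scale. Cfap73 and Cfap43 show separate genotypes, while in Cfap100 and Cfap44 the knockout points reach into the WT range.

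Cfap46, Cfap54, Cfap74 and Cfap221 encode proteins of the same projection of the central apparatus. The log2 ratio of Cfap221 to the other genes was lower in every knockout library than in every WT library, by 0.72 against Cfap46, 0.64 against Cfap54 and 0.50 against Cfap74. For each of these 5 ratios the exact two-sided permutation p was 0.1, the smallest that 3 libraries against 3 allow. The genes of a ratio share libraries, and the pairs were chosen for known partnership among genes whose fold changes were in view. Cfap221 was already known to have the lowest log2 fold change of its role group. The direction of each ratio was thus known beforehand, and these p-values do not test it. Not every set of partner genes was set side by side.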

How the data were processed

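Read counts per gene symbol were used as the authors deposited them: whole numbers with 1 column per library and 0 columns left unused. Per the submitters' processing notes, FastQC 0.11.2, cutadapt 1.11, HISAT2 2.1.0 and the build GRCm38 were used. The counting program, annotation, strand setting and treatment of multi-mapping reads are not given in the sources used here, so overlapping genes may share reads. Columns were matched to samples by genotype and replicate number.

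Counts were analysed in R 4.3.3 with edgeR 4.0.16 (filterByExpr, TMM, quasi-likelihood test of knockout against WT, no covariate, Benjamini-Hochberg adjustment over 14243 tested genes, threshold 0.05). SE was taken as |log2 fold change|/√F. CPM uses TMM-scaled library sizes. DESeq2 1.42.0 and limma 3.58.1 served as alternatives. For the scaling to the axoneme, the summed counts of 67 other axoneme genes replaced the library sizes. The fits were tested on simulated counts. Exon lengths, overlaps and shared 31-mers came from GENCODE M21 (2 symbols matched through an older name), and promoters from RefSeq GRCm38.p6. With 3 libraries a genotype, an exact permutation test cannot give p under 0.1.

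All 31 Cfap genes were named. Values in every library were given for the highest and lowest fold change of each role group and the 4 highest mean CPM (a choice of well-covered genes, not a comparison of levels), and for others chosen after their values were seen. Members and lists were chosen with earlier results of these data known.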

Additional observations from a re-analysis of the deposited data

How the results depend on the processing

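Alternatives were DESeq2 size factors, library size alone, other filters, DESeq2, limma voom, each library left out, a threshold of 0.01, a replicate block and, chosen after seeing the data, removal of each library's trend with exon length. The count of Cfap genes called lower was 23 to 27 over these (25 as reported), and 0 were called higher in each. Of the 25, 23 were called in every alternative, the exceptions being Cfap47 and Cfap69. The median log2 fold change stayed between -0.70 and -0.62. The number called over the whole table fell to 2213 at the 0.01 threshold. Leaving out a library moved Cfap97 from -0.041 (without WT replicate 2) to 0.18 and Cfap100 from -0.094 to 0.0061 (without knockout replicate 2). Neither passed in any alternative, and the cause was not tested. With the geometric mean of the other axoneme genes as reference, 8 Cfap genes lay below it and 12 above.

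With the replicate number as a block, 27 Cfap genes were called lower, adding Cfap77 (-0.48, adjusted p = 0.0103 by edgeR) and Cfap44 (-0.19, adjusted p = 0.00647), and 10 lay below and 12 above the axoneme sum. The correlations between the deviations of same-numbered libraries were 0.069, 0.060 and 0.037, too low to assume pairing, although all 6 libraries correlated best with their own number.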

Other observations

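RefSeq lists CFAP251 and CFAP91 as other names of Wdr66 and Maats1, which the naming rule leaves out. Both encode proteins at the base of a radial spoke, as Cfap61 does. Wdr66 fell from 165 ± 8.92 to 96.2 ± 4.41 CPM, which is -0.78 on the log2 scale (SE 0.059, adjusted p = 1.64e-06 by edgeR). Maats1 fell from 212 ± 13.4 to 133 ± 4.33 CPM, which is -0.67 on the log2 scale (SE 0.057, adjusted p = 3.67e-06 by edgeR; mean ± SD, n = 3 each). Relative to the axoneme sum they had -0.12 and -0.0040 and were not called.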
